A study of Mus musculus with 2 samples.

Results

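The genes described here are 8 that bind, sense or move zinc: the metallothioneins Mt1, Mt2 and Mt3, the zinc sensor Mtf1, the exporters Slc30a1, Slc30a3 and Slc30a10, and the importer Slc39a10. They were chosen by name, and all 8 of 8 were found among the 43346 mouse gene rows of the deposited tables. The tissue was the hindbrain of newborn mice (day 0 after birth) of the B6NTac;B6NCrl/Lap strain, males and females pooled. Total RNA longer than 200 nt, cleared of ribosomal RNA and mixed with spike-in RNA, was sequenced from both fragment ends with strand kept. The series has 1 group of 2 libraries. Replicate 1 came from 15 mice, and the pool size of replicate 2 is not given in the sources used here. Both replicates carry 1 donor identifier, although they are described as separately isolated, so part of their spread may be technical. No treatment, mutation or second tissue is labelled, and no comparison between conditions can be made.

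Zinc is a structural and catalytic part of many proteins, yet cells hold very little of it free. Metallothioneins are short cytosolic proteins whose cysteines bind zinc and copper. MTF1 is a transcription factor that binds zinc through its zinc fingers, enters the nucleus and activates metallothionein genes and the exporter gene Slc30a1 through metal response elements. SLC30 proteins carry zinc, or in some cases manganese, out of the cytosol, into vesicles or out of the cell, and SLC39 proteins carry metals into the cytosol. In brain, Mt1 and Mt2 are best known from astrocytes, Mt3 is also known as growth inhibitory factor, and Slc30a3 loads zinc into glutamatergic synaptic vesicles.

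The coding sequences of the metallothioneins are shown because the cysteine codons (TGC or TGT, in capitals) are what the family shares and the remaining codons are where Mt3 departs. Each is the sense strand of the GENCODE M21 transcript on mm10, joined over 3 exons, without the stop codon, spanning chr8:94179311-94180190 for Mt1, chr8:94172848-94173424 for Mt2 and chr8:94152800-94154007 for Mt3, all on the plus strand.
Mt1: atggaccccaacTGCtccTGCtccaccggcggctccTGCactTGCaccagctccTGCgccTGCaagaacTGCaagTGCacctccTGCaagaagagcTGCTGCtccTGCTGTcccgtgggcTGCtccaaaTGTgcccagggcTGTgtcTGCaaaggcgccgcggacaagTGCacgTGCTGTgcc
Mt2: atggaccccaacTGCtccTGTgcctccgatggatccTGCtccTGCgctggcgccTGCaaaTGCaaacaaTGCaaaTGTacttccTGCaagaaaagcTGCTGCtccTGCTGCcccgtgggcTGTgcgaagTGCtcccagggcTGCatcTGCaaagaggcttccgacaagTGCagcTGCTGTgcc
Mt3: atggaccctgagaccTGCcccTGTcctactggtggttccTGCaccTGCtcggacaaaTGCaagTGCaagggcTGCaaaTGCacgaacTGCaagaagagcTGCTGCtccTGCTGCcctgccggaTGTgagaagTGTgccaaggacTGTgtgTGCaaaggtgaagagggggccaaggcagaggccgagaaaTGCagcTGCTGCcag
Each held 20 cysteine codons, out of 61 in Mt1 and Mt2 (32.8%) and out of 68 in Mt3 (29.4%). Mt3 had 6 glutamate codons, against 1 in Mt2 and 0 in Mt1, and 11 lysine codons, against 8 and 7. Mt1 and Mt2 were identical at 79.2% of 183 aligned bases, Mt1 and Mt3 at 65.7% of 204 aligned columns and Mt2 and Mt3 at 67.2%. The longest run shared by any pair of these transcripts was 27 nt, shorter than the sequenced reads per the labels, and the deposited posterior SD of the counts was 0 for each of the 8 genes in both libraries.

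The zinc sensor reads the metal response element, whose core was searched as TGCACNC and TGCGCNC on both strands of RefSeq promoter windows (GRCm38.p6, 250 bases before to 50 after the start site RefSeq gives). The windows of Mt1, Mt2 and Slc30a1, classical targets of MTF1, are shown up to base 30 after the start, 5′ to 3′ on the plus strand, with every core match in capitals. They are chr8:94178839-94179118, chr8:94172368-94172647 and chr1:191906531-191906810. A match on the minus strand appears as its reverse complement.
Mt1: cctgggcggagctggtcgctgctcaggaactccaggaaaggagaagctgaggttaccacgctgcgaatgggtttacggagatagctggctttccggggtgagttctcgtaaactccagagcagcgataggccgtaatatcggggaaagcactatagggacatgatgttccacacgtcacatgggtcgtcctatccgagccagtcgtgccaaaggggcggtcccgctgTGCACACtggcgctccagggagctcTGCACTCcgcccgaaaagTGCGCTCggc
Mt2: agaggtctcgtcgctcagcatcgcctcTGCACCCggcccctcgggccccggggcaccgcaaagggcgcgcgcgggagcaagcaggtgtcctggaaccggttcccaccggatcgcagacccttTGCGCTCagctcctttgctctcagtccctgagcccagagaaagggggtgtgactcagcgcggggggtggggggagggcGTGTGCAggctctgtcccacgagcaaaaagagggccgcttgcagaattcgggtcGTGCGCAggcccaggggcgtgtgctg
Slc30a1: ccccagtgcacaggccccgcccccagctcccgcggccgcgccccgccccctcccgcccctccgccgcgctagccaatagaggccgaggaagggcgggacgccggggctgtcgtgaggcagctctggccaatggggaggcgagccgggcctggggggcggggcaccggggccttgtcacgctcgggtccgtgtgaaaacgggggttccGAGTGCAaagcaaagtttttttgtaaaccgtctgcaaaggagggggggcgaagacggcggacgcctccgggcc
Mt2 had 4 matches in its window, Mt1 and Slc30a10 had 3 each, Slc30a1 had 2, and Mt3 and Slc30a3 had 1 each. In Slc30a10, 2 of the 3 overlap, being 1 place read on both strands, and the second match of Slc30a1 lies past the stretch shown. In Slc30a3 the match was in 1 of 2 windows, chr5:31108195-31108494, and the other window, at the start of the transcript Slc30a3-201 that held 100% of the gene's counts, had 0. Neither Mtf1 nor Slc39a10, which has 2 windows, held these letters. The GENCODE M21 start of Slc39a10-201, which held 99.3% and 98.4% of that gene's TPM, is chr1:46854046. It lies outside both windows, chr1:46853569-46853868 and chr1:46925727-46926026, so the promoter at that start was not searched. At least 1 match stood in 25.7% of the 32851 windows in the RefSeq table, at least 2 in 7.11%, at least 3 in 1.97% and at least 4 in 0.517%. Of the 8 genes, 6 had at least 1. That count is per gene, over 2 windows each for Slc30a3 and Slc39a10, whereas the shares are per window. These matches are letters in a window, not measured binding, and bases outside the windows were not searched.

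Library totals were 54313140 and 77142270 expected counts for replicates 1 and 2. Levels below are TPM, transcripts per 1000000, in which counts are divided by effective length so that genes can be compared. Nuclear coding genes took 28.1% of TPM in replicate 1 and 19.3% in replicate 2, and a typical well-counted coding gene had 1.44-fold more TPM in replicate 1 (median of 10527 genes). For this reason differences between the libraries are read from scaled counts and differences between genes from ratios taken within a library. Hindbrain position genes were present, with 8 of 8 at 1 TPM or more in both libraries, led by Zic1 (78.5 and 65.3 TPM). Of 6 forebrain genes 1 reached that level, Neurod6 with 6.77 and 4.0 TPM. Emx2, with 0.05 and 0.09 TPM, was past 1.5-fold higher in replicate 2.

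Metallothionein RNA in the newborn hindbrain was mostly that of Mt1 and Mt3, with Mt2 far lower and their neighbour Mt4 at 0 counts. Mt1 (ENSMUSG00000031765.7) had 3427 counts and 185 TPM in replicate 1 and 8152 counts and 202 TPM in replicate 2, a mean of 193 ± 11.9 TPM (SD, n = 2). Mt3 (ENSMUSG00000031760.8) had 3136 counts and 171 TPM, then 6753 counts and 169 TPM, a mean of 169.6 ± 1.58 TPM. They ranked 119 and 150 among 21461 nuclear coding genes by mean TPM. These ranks rest on short effective lengths in replicates 1 and 2. They were 226 and 244.5 nt for Mt1, of 540 nt, and 224 and 243 nt for Mt3, of 538 nt. Mt2 (ENSMUSG00000031762.6) had 494 counts and 24.9 TPM in replicate 1 and 776 counts and 18.0 TPM in replicate 2, a mean of 21.5 ± 4.86 TPM and rank 2217. Together the RNAs of Mt1, Mt2 and Mt3 came to 381 and 388 TPM. Mt1 made up 50.3 ± 2.38% of that sum, Mt3 44.1 ± 1.04% and Mt2 5.59 ± 1.34% (SD, n = 2). The TPM of Mt1 and Mt3 lay close between the libraries although a typical coding gene had 1.44-fold more TPM in replicate 1. Rescaled to nuclear coding genes alone, Mt1 had 659 and 1048 TPM and Mt3 609 and 875 TPM. The small SDs in TPM therefore do not show even levels.

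Within each library Mt1 stood above Mt2 by 7.43-fold (replicate 1) and 11.2-fold (replicate 2), a log2 difference of 3.19 ± 0.42. Mt3 stood above Mt2 by 6.86-fold and 9.35-fold, a log2 difference of 3.00 ± 0.32. Mt1 and Mt3 were close, with Mt1 higher by 1.08-fold and 1.20-fold, a log2 difference of 0.19 ± 0.10. A pair was counted as apart when both libraries gave the same sign and the mean log2 difference exceeded the gap between the libraries. By that rule all these pairs were apart, Mt1 and Mt3 only narrowly (0.19 against a gap of 0.14).

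**Figure D1:**
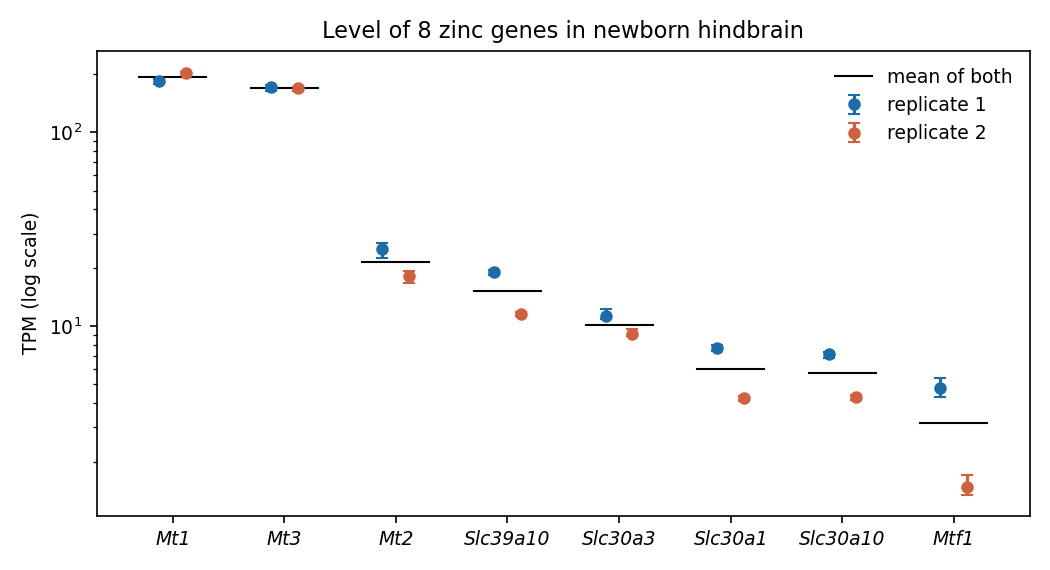
Level of each of the 8 genes in TPM on a log axis, with circles for replicate 1 (blue) and replicate 2 (orange), bars for the deposited interval, whose level is not stated, and a black line for the mean of both. Mt1 and Mt3 sit between 169 and 202 TPM, above the other 6 genes, and Mtf1 shows the widest gap between its circles (4.81 and 1.48 TPM).

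The metallothionein genes lie side by side on the plus strand of chromosome 8 in mm10: Mt4 at 94137197-94139031, Mt3 at 94152607-94154146, Mt2 at 94172664-94173568 and Mt1 at 94179082-94180327. The gaps between them are 13.6 kb from Mt4 to Mt3, 18.5 kb from Mt3 to Mt2 and 5.51 kb from Mt2 to Mt1. Mt2 and Mt1, the closest neighbours, differed 9.12-fold on average in level, and Mt2 and Mt3 8.01-fold. For Mt4, a gene known from stratified epithelia, a count of 0 allows up to 0.472 TPM in replicate 1 and 0.190 TPM in replicate 2 (3 counts each, counting error only). Mt2 shares 432 exon bases with Gm45774, an antisense gene on the opposite strand that has no row of its own in the tables. The sources used here do not state whether counting used strand, so its reads cannot be told from those of Mt2.

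**Figure D2:**
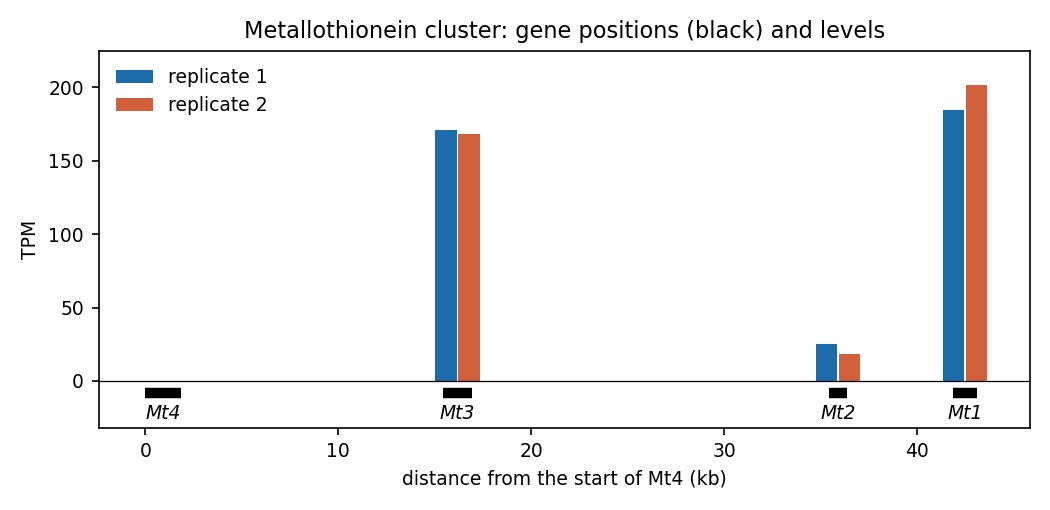
Metallothionein genes along chromosome 8 as distance from the start of Mt4 in kb (black blocks), with bars for TPM in replicate 1 (blue) and replicate 2 (orange). Mt1 and Mt3 have bars from 169 to 202 TPM on both sides of Mt2 at 18.0 to 24.9 TPM, and Mt4 has none.

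Mtf1, the sensor, was the lowest of the 8 genes in TPM and its TPM the least even between the libraries. Mtf1 (ENSMUSG00000028890.9, chr4:124802104-124849800, plus strand) had 1334 counts and 4.81 TPM in replicate 1 and 1279 counts and 1.48 TPM in replicate 2, a mean of 3.15 ± 2.35 TPM (SD, n = 2). Its TPM was thus 3.25-fold higher in replicate 1, more than the 1.44-fold of a typical coding gene. Mt1 stood 38.5-fold above Mtf1 in replicate 1 and 136-fold in replicate 2, a log2 difference of 6.18 ± 1.29. With counts divided by the deposited gene length in place of effective length the log2 difference was 5.08. For Mtf1 that length is itself a mean over its transcripts, 3702 nt in replicate 1 and 5534 nt in replicate 2.

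The transcripts behind the Mtf1 value differed between the libraries. The full-length coding transcript Mtf1-201 (7631 nt, 11 exons) held 1131 and 1228 counts, or 1.89 and 1.01 TPM. Mtf1-204, a 781 nt transcript annotated as a retained intron near the 5′ end of the gene, held 104 counts in replicate 1 and 16.96 in replicate 2, or 2.73 and 0.21 TPM. With 7.82% of the counts of Mtf1, this short transcript made up 56.7% of its TPM in replicate 1. In replicate 2 it had 1.33% of the counts and 14.3% of the TPM. Mtf1-205, a short coding model of 750 nt, went the other way, with 1.00 count in replicate 1 and 18.0 in replicate 2, or 0.58% and 16.2% of the TPM. Its span lies within that of Mtf1-204, so how these few counts are split between the 2 models is uncertain. Together Mtf1-204 and Mtf1-205 had 105 and 35.0 counts, or 7.90% and 2.73% of the counts and 57.3% and 30.5% of the TPM. Mtf1-202, the other full-length model, had 97.4 and 16.0 counts, and the remaining model had 0 in both libraries, which allows up to 0.114 and 0.053 TPM.

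Over the full-length models Mtf1-201 and Mtf1-202 together, counts were 1229 and 1244 and TPM 2.05 and 1.02, a 2.01-fold ratio in place of 3.25-fold. Against these models alone, Mt1 stood 90.2-fold and 198-fold higher. The mean effective length of Mtf1, which follows the transcript shares, was 3388 nt in replicate 1 and 5238 nt in replicate 2. Of 15276 coding genes at a mean count of 10 or more, 3.61% had an effective length at least 1.5-fold longer in replicate 2. Mtf1 also shares 721 exon bases, at its 3′ end, with 1110065P20Rik on the opposite strand, which had 2387 and 3569 counts. Leading transcripts were the same in both libraries for the other 7 genes. A single transcript held 100% of the deposited TPM of Mt1, Mt2, Mt3, Slc30a1, Slc30a3 and Slc30a10, and Slc39a10-201 held 99.3% and 98.4% of that of Slc39a10.

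**Figure D3:**
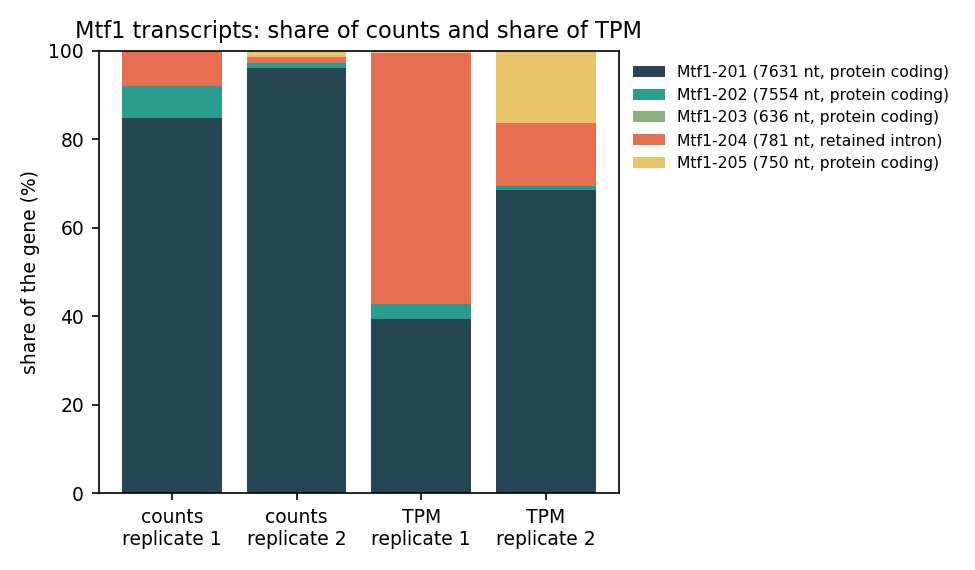
Stacked bars of the share (%) of each of the 5 Mtf1 transcripts in the gene's counts (left pair) and TPM (right pair), for replicates 1 and 2. Mtf1-201 has 84.8% and 96.0% of the counts, whereas the 781 nt retained-intron transcript Mtf1-204 goes from 7.82% of counts to 56.7% of TPM in replicate 1.

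The exporter genes Slc30a1 and Slc30a10 had nearly the same level, Slc30a3 stood above both, and the importer Slc39a10 above all of these. Slc30a1 (ENSMUSG00000037434.7, chr1:191906767-191913247, plus strand) encodes the main zinc exporter of the plasma membrane. It had 3123 counts and 7.73 TPM in replicate 1 and 3465 counts and 4.24 TPM in replicate 2, a mean of 5.99 ± 2.47 TPM (SD, n = 2). Slc30a10 (ENSMUSG00000026614.6, chr1:185454848-185468762, plus strand), whose protein is best known as a manganese exporter, had 3239 counts and 7.16 TPM, then 3928 counts and 4.29 TPM, a mean of 5.73 ± 2.03 TPM. Slc30a1 was 1.08-fold higher in replicate 1 and 0.988-fold of Slc30a10 in replicate 2, a log2 difference of 0.05 ± 0.09, so this pair was not apart. Slc30a1 shares 468 exon bases with 1700034H15Rik (156 and 76 counts) and Slc30a10 shares 533 with Gm2061 (602 and 735 counts), both on the opposite strand.

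Slc30a3 (ENSMUSG00000029151.10, chr5:31086106-31108237, minus strand) had 1630 counts and 11.2 TPM in replicate 1 and 2696 counts and 9.10 TPM in replicate 2, a mean of 10.2 ± 1.49 TPM. It was 1.45-fold and 2.15-fold above Slc30a1. Slc39a10 (ENSMUSG00000025986.6, chr1:46807544-46892852, minus strand) encodes a zinc importer of the plasma membrane. It had 8021 counts and 19.0 TPM in replicate 1 and 9828 counts and 11.5 TPM in replicate 2, a mean of 15.3 ± 5.25 TPM. It stood 2.45-fold and 2.72-fold above Slc30a1, a log2 difference of 1.37 ± 0.11.

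All 8 genes reached 1 TPM in both libraries, a level that 54.6% of 21461 nuclear coding genes reached. In order of mean TPM they ran Mt1, Mt3, Mt2, Slc39a10, Slc30a3, Slc30a1, Slc30a10 and Mtf1. Of the 7 neighbouring pairs in that order 6 were apart, the exception being Slc30a1 and Slc30a10. The step from Mt3 to Mt2, at 8.01-fold, was the largest of the 7, and the next was 2.08-fold, from Slc30a10 to Mtf1. The place of Mt2 above Slc39a10 (1.31-fold and 1.56-fold) rests on the short effective length of Mt2, 242 and 260 nt of 556 nt. Mt2 had 494 and 776 counts on 556 nt, and Slc39a10 had 8021 and 9828 counts on 5476 and 5447 nt. As counts per nt of length, Slc39a10 was thus the higher in both libraries. The 8 genes had a median of 12.7 TPM, against 8.11 TPM for the 11725 coding genes at 1 TPM or more in both libraries.

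Among the rest of both transporter families, 16 of 21 genes reached 1 TPM in both libraries, with a median of 7.88 TPM over all 21. Of 13 other importer genes 10 did. Slc39a7, whose protein releases zinc from the endoplasmic reticulum, led with 61.5 and 48.1 TPM. It was followed by Slc39a3 (35.2 and 22.6 TPM) and Slc39a1 (27.3 and 20.2 TPM), both encoding plasma membrane importers, so Slc39a10 was not the highest of its family. Slc39a4, the importer of intestinal zinc uptake, was the lowest, with 1 and 3 counts. Slc39a2, with 117 and 62 counts (0.69 and 0.17 TPM), was the only other importer gene past 1.5-fold between the libraries, at a log2 ratio of -1.39.

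Of 8 further genes for zinc export and vesicle loading 6 reached 1 TPM in both libraries. Slc30a9 had 32.6 and 24.1 TPM, and Tmem163, which encodes a vesicular zinc carrier outside the Slc30 family, had 15.8 and 10.7 TPM. Slc30a5, which acts in the early secretory pathway, had 10.9 and 7.18 TPM, close to Slc30a3. Slc30a8, known from insulin granules, was the lowest with 0 and 21 counts, and of the 7 with a mean count of 10 or more it alone was past 1.5-fold between the libraries. Slc30a2 had 17 and 0 counts. A count of 0 allows up to 0.022 TPM for Slc30a8 in replicate 1 and 0.0087 TPM for Slc30a2 in replicate 2.

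**Figure D4:**
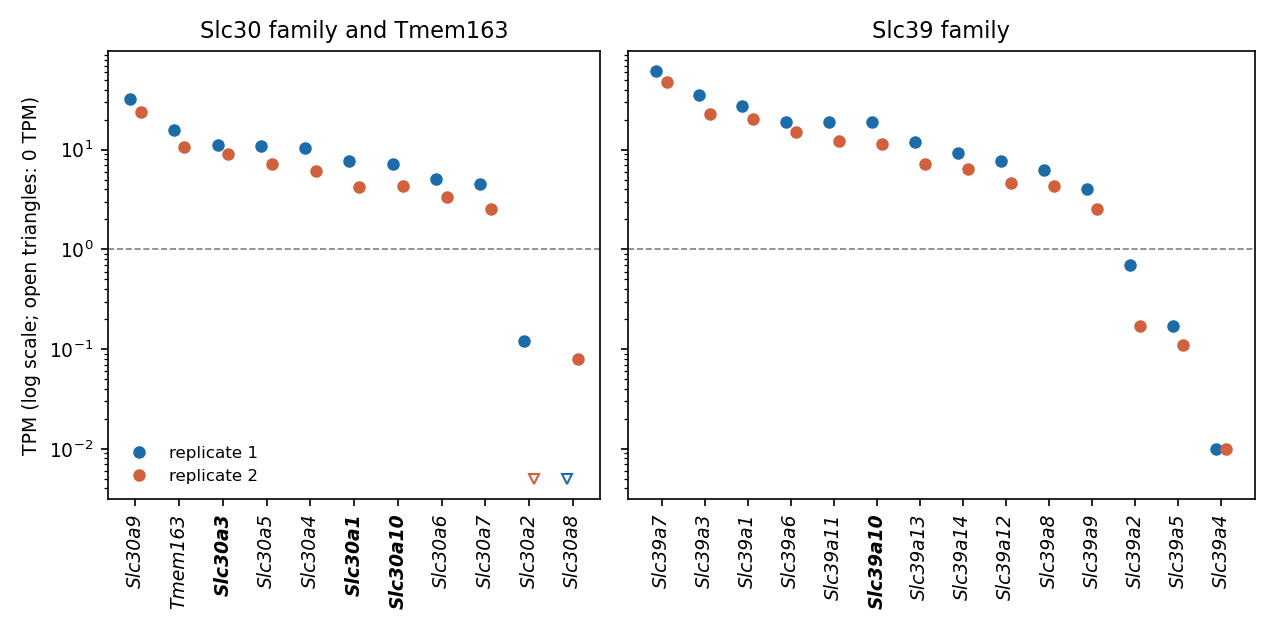
Level in TPM (log axis) of the Slc30 family with Tmem163 (left) and of the Slc39 family (right), in order of mean level, for replicate 1 (blue) and replicate 2 (orange), with described genes in bold, open triangles for 0 TPM and a dashed line at 1 TPM. Slc30a3 follows Slc30a9 and Tmem163 on the left, and on the right Slc39a10 follows 5 genes led by Slc39a7 at 48.1 to 61.5 TPM.

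Slc30a3 works together with the vesicular glutamate transporters and the adaptor complex AP-3, which sorts it to synaptic vesicles. In a list of 10 such partner genes, to which the synaptic vesicle gene Syp was added as 1 of the 10, all reached 1 TPM in both libraries. Syp, a synaptic vesicle membrane protein gene, led with 139 and 98.1 TPM, followed by the AP-3 subunit genes Ap3b2 (64.4 and 39.8 TPM) and Ap3d1 (42.4 and 28.1 TPM). Slc17a7, the vesicular glutamate transporter VGLUT1, was the lowest with 2.50 and 2.51 TPM, while Slc17a6, which encodes VGLUT2, had 30.9 and 19.5 TPM. Of these 10 genes 0 were past 1.5-fold between the libraries. Slc17a6 is named here beyond the rule for lists, having been chosen after its values were seen.

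Of 7 other genes reported as MTF1 targets or metal responsive, 5 reached 1 TPM in both libraries. Selenow, a small selenoprotein gene, led with 139.9 and 108 TPM, followed by Csrp1 (26.0 and 18.2 TPM), which encodes a LIM domain protein, and Ndrg1 (9.46 and 8.16 TPM). The lowest was Mt4 at 0 counts. Pgf, a growth factor gene of the VEGF family, had 60 and 178 counts (0.58 and 0.84 TPM), and was the only one of the 7 past 1.5-fold between the libraries, at a log2 ratio of 1.04.

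Between the libraries, Mt1 and Mt3 were higher in replicate 2 while the sensor and 3 of the 4 transporters were lower, though not past 1.5-fold. These ratios use expected counts scaled to library size by TMM. Mt1 went from 63.9 to 107 scaled CPM (counts per 1000000 mouse gene counts), a 1.67-fold difference and a log2 ratio of 0.74 (95% counting interval 0.68 to 0.80). Mt3 went from 58.5 to 88.5, a 1.51-fold difference and a log2 ratio of 0.60 (0.54 to 0.66). Mt3 lies just past the 1.5-fold line and its interval spans that line. Mt2 went from 9.21 to 10.2, a log2 ratio of 0.14, and its interval (-0.02 to 0.31) includes no difference. These intervals and the floors above cover counting error only, since reads without molecular identifiers are not independent molecules.

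Mtf1 had the lowest ratio, from 24.9 to 16.8 scaled CPM, a log2 ratio of -0.57 that falls just short of 1.5-fold. On its full-length models alone the log2 ratio was -0.49. Slc30a1 had a log2 ratio of -0.36, Slc30a10 of -0.23, Slc39a10 of -0.22 and Slc30a3 of 0.22, and none of their counting intervals included 0. With 1 library on each side there is no replicate check of any of these differences.

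Thus 2 of 8 genes were 1.5-fold or more higher in replicate 2 and 0 of 8 were lower by that much. Of all 17629 mouse genes at a mean count of 10 or more, 14.7% were higher in replicate 2 by 1.5-fold or more and 9.88% lower. Many of these genes have few counts, and among the 10681 coding genes at a mean count of 500 or more, where Mt1, Mt2, Mt3 and the others fall, 2.51% were higher and 1.66% lower. The median log2 ratio was -0.04 over the 8 genes and -0.02 over the well-counted coding genes.

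Several properties of the libraries moved with the higher Mt1 and Mt3 of replicate 2. Mt1, Mt2 and Mt3 are 538 to 556 nt long in the tables, and mean fragment lengths were 314.9 nt in replicate 1 and 296.6 nt in replicate 2. Of 204 well-counted coding genes under 700 nt, 11.3% were 1.5-fold or more higher in replicate 2, with a median log2 ratio of 0.10. Choroid plexus markers were higher in replicate 2 for 5 of 5 genes, with a median log2 ratio of 0.63, 3 of them past 1.5-fold: Ttr, a thyroxine carrier (435 to 671 scaled CPM), the potassium channel gene Kcnj13 (2.05 to 5.12) and the transcription factor gene Otx2 (13.9 to 22.9). Their summed level was 464 in replicate 1 and 716 in replicate 2, a factor of 1.54. The part of fragment length and of choroid plexus RNA in the values of Mt1 and Mt3 was not tested. In bulk tissue, more cells of a type and more RNA per cell cannot be told apart.

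Meningeal fibroblast markers summed to 1.34-fold more in replicate 2, with 1 of 5 past 1.5-fold, Ptgds (log2 ratio 0.74), a prostaglandin synthase gene that choroid plexus also expresses. Ptgds went from 284 to 476 scaled CPM of a summed 653 and 874, and the median log2 ratio of the 5 was 0.07, with Dcn and Lum at -0.02 each. The 10 astrocyte and radial glia markers summed to 1.01-fold, with S100b alone past 1.5-fold (log2 ratio 0.76), and the 6 neuron markers to 0.940-fold with 0 past it. The 5 endothelial markers summed to 0.925-fold, with Slco1a4 past 1.5-fold (log2 ratio 1.12). In these 5 lists every gene reached 1 TPM in both libraries.

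**Figure D5:**
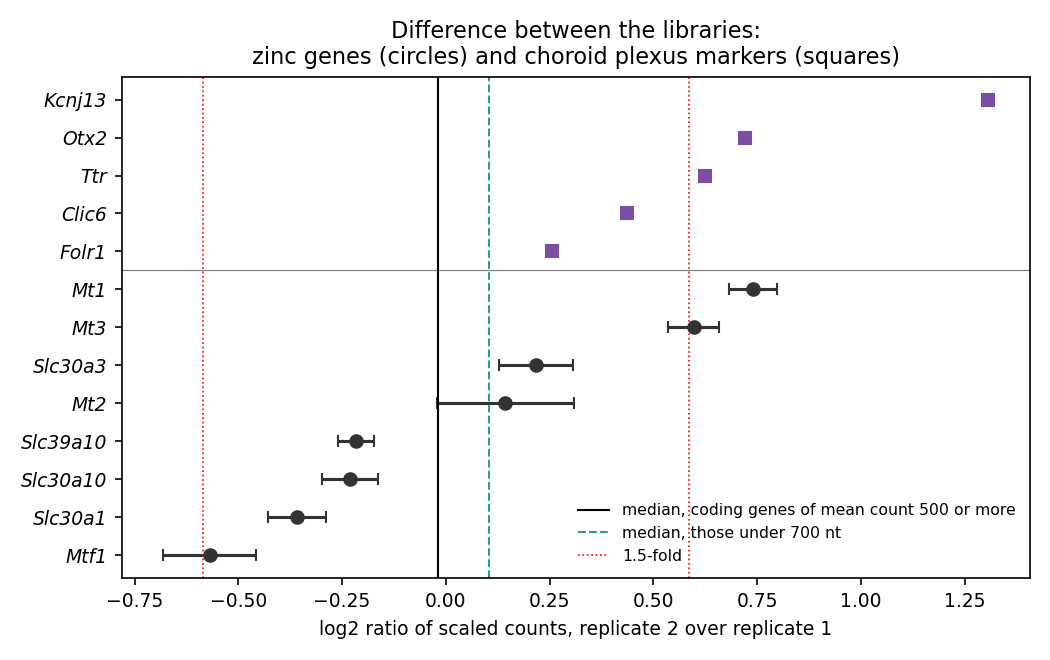
Log2 ratio of scaled counts, replicate 2 over replicate 1, for the 8 zinc genes (circles, with 95% counting intervals) and 5 choroid plexus markers (squares), with lines for the median of well-counted coding genes (black), for those under 700 nt (dashed) and for 1.5-fold (dotted). Mt1 (0.74) and Mt3 (0.60) lie right of the dotted line at 1.5-fold with Ttr, Otx2 and Kcnj13, and Mtf1 (-0.57) lies just inside the line on the left.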

How the data were processed

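Tables per gene and per transcript were deposited for each of 2 libraries, made on mm10 with GENCODE M4 per the deposited file notes. For the aligner, the quantifier and the use of strand in counting, nothing is given in the sources used here. As named in the deposited headers, the authors' expected counts are estimated fragment counts. The deposited TPM is counts over effective length, scaled to a fixed sum, and the deposited percent is how much of a gene's TPM each transcript holds. The deposited interval bounds are used as a score, since their level is not stated. Symbols and coordinates came from GENCODE M21, with 42462 of 43346 mouse genes (98.0%) matched. Counts were rounded to whole numbers and scaled by TMM (edgeR 4.0.16, R 4.3.3, prior count 2) over all mouse genes, a step tested on simulated data. A gene was present at 1 TPM or more in both libraries, and past the fold at 1.5-fold. With 1 group no test was possible. The 8 genes and 14 gene lists were chosen with earlier results of these data known. Of each metal or hormone list the text names the 3 highest genes, the lowest and those past 1.5-fold (mean count 10 or more). Of the 7 cell type and position lists it names those past 1.5-fold and, for position, the leading gene. Some genes that this rule covers are not reported here. Protein sequences were not used here. Alternative scalings (DESeq2 1.42.0 size factors, total counts, spike-in totals), other thresholds, posterior means and single libraries were also computed.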

Additional observations from a re-analysis of the deposited data

How the results depend on the processing

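Of 57 alternative values for the main results, 54 stayed within the limits set for a change, part of them fixed in advance as given below. Among them, the sign of Slc30a1 over Slc30a10, a pair that was not apart, turned without replicate 1. The other 3 follow from the thresholds: 0 of the 8 genes were past a 2-fold difference and 4 passed a line midway between no difference and 1.5-fold, and 5 reached 5 TPM in both libraries. Leaving out each library in turn gave log2 differences of 2.89 to 3.48 for Mt1 over Mt2, -0.26 to -0.12 for Mt3 over Mt1, 2.78 to 3.22 for Mt3 over Mt2, -0.02 to 0.11 for Slc30a1 over Slc30a10, 1.30 to 1.44 for Slc39a10 over Slc30a1, -1.10 to -0.54 for Slc30a1 over Slc30a3 and 5.27 to 7.09 for Mt1 over Mtf1. These leave-out values could not count as changed, because the limit for a pair was the SD of the 2 libraries, which they never exceed. All 8 genes stayed at 1 TPM or more, which the rule of both libraries already fixes, and 6 to 7 neighbours kept their order. The leave-out values of pairs and of detection are among the 54 and do not measure robustness. Scaling by spike-in totals gave log2 ratios of 0.84 for Mt1, 0.70 for Mt3 and -0.47 for Mtf1. TPM rescaled to coding genes alone gave means of 854 for Mt1, 742 for Mt3, 91.2 for Mt2 and 12.4 for Mtf1. The full-length Mtf1 models and the backgrounds by count and length were chosen after seeing the data. No paired analysis was possible because the series has 1 group. A sample size of 2 libraries limits every SD here, and depth limits the genes and transcripts with few counts, among them Mt4, Slc39a4, Slc30a2, Slc30a8, Emx2 and all Mtf1 models but Mtf1-201.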

Other observations

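Manganese handling genes, listed because Slc30a10 and several Slc39 proteins also carry that metal, reached 1 TPM in both libraries for 6 of 6. Atp13a2, a lysosomal P-type ATPase gene, led with 114 and 83.2 TPM, followed by Atp2c1, the Golgi calcium and manganese pump gene (34.8 and 31.2 TPM), and the transferrin receptor gene Tfrc (15.1 and 9.48 TPM). The lowest was Slc39a8, a zinc and manganese importer gene, with 6.25 and 4.29 TPM. No gene of the 6 was past 1.5-fold between the libraries, and their median log2 ratio was -0.0023.

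Copper handling genes, listed because metallothioneins also bind copper, reached 1 TPM in both libraries for 9 of 9. Sod1, the copper and zinc superoxide dismutase gene, had 58.6 and 35.3 TPM, the copper chaperone gene Atox1 48.3 and 28.4 TPM and Ccs, the chaperone gene that delivers copper to SOD1, 5.83 and 5.29 TPM. The lowest was Atp7b, a copper-transporting ATPase gene, with 2.34 and 1.20 TPM. No gene of the 9 was past 1.5-fold between the libraries (median log2 ratio -0.14).

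Glucocorticoids are known to induce Mt1 and Mt2, and of 5 glucocorticoid response genes 5 reached 1 TPM in both libraries. Tsc22d3 had 31.2 and 19.6 TPM, Sgk1 20.9 and 13.6 TPM and Per1 6.70 and 5.19 TPM, and Fkbp5 was the lowest by mean TPM with 6.12 and 4.95 TPM, although Nr3c1, the receptor gene, was lower in replicate 2 (7.55 and 4.16 TPM). None of the 5 was past 1.5-fold between the libraries (median log2 ratio 0.20).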
